A study of Mus musculus with 3 samples.

Results

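The TNF superfamily was followed here as 43 protein-coding genes, 17 ligands and 26 receptors, picked by official symbol from the 55536 genes of the deposited gene tables. Of those genes 22028 are protein-coding, and all 43 members were found. The cells were macrophages grown from C57BL/6J bone marrow, and RNA of their cytosolic fraction was sequenced after ribosomal RNA depletion. All of them had met lipid A, the part of bacterial lipopolysaccharide that Tlr4 recognises, at 100 ng/ml for 12 h, were then kept without it for 12 h, and were taken at 0 min of a second exposure. The series holds this 1 group with 3 libraries, named replicates 1, 2 and 3 in the labels, which carry 1 donor identifier, while age and sex were not collected. Untreated cells and later times were not analysed here, so each value is a level in this state and no effect of lipid A was measured. No label ties a library to its own animal or culture, so the spread between libraries may be technical.

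TNF superfamily ligands are mostly membrane proteins that form trimers and can be cut loose by proteases, and their receptors carry cysteine-rich domains outside the cell. Receptors with a death domain inside the cell can start caspase-driven death as well as NF-κB signalling, the others signal through TRAF adaptors, and decoys bind ligand without passing it on. Macrophages are known as a main source of Tnf, and their precursors form osteoclasts when Tnfrsf11a, the receptor known as RANK, is engaged.

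Gene rows held 28981178 to 53119941 expected counts per library, and levels below are in TPM, transcript abundance corrected for length and library total, as mean ± SD over the 3 libraries (n = 3). Protein-coding genes held 27.2 to 31.6% of all TPM, so TPM values of messenger RNAs are low in absolute size. All 8 macrophage markers reached 1 TPM in every library, with a summed level of 4794 to 5711 TPM, and the lysozyme gene Lyz2 led them at 3326 ± 193 TPM. Of 31 markers of other cell types, 2 neutrophil genes did so, S100a9 at 4.54 ± 1.70 and S100a8 at 2.96 ± 0.813 TPM. The other neutrophil markers, Mpo, Elane and Ly6g, held 0.043, 0.01 and 0 TPM on average. Summed levels were 4.76 to 9.36 TPM for neutrophil, 0.98 to 2.03 for endothelial, 0.14 to 0.18 for dendritic cell, 0.02 to 0.11 for T and NK cell, 0.02 to 0.11 for stromal, 0.03 to 0.07 for mast cell and 0 to 0.04 TPM for B cell markers. The leading genes of those other lists were Pecam1 of endothelium at 0.860 ± 0.370 TPM and Zbtb46, Mcpt8, Dcn, Ms4a1 and Trac at 0.013 to 0.080 TPM. In bulk RNA, fewer cells of a type and less RNA per cell cannot be told apart.

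The family was present as a small set of abundant receptors with Tnf as its leading ligand, over a long tail of members near 0. Of the 43 members, 17 reached 1 TPM in every library (39.5%), against 41.2% of all protein-coding genes. In the table made straight from reads 12 members did, against 33.9% of all protein-coding genes. A mean level of at least 10 TPM was held by 11 members (25.6%), against 18.8% of all protein-coding genes. The median member held 0.487 ± 0.0666 TPM, against 0.157 ± 0.0462 TPM for the median protein-coding gene. All members together held 521 ± 43.4 TPM, of which receptors made up 415 ± 56.3 and ligands 106 ± 13.7 TPM. Tnfrsf1b, Tnfrsf14, Tnf and Tnfrsf1a alone held 73.5 ± 0.705% of that sum.

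Tnfrsf1b was the most abundant member, and 6 of the 16 receptors without a death domain reached 1 TPM in every library. Tnfrsf1b, a receptor for Tnf that responds best to its membrane-bound form, held 192, 157 and 219 TPM in replicates 1, 2 and 3, for 189 ± 31.4 TPM. It ranked 195 among the 22028 protein-coding genes, and even its lowest library lay above the highest of any other member. Tnfrsf14, known as HVEM, binds Tnfsf14 as well as Btla of the immunoglobulin family. Tnfrsf14 held 76.0, 69.4 and 98.3 TPM, for 81.2 ± 15.2 TPM, and its range overlapped that of Tnf.

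Tnfrsf1b lies on chromosome 4 from 145213463 to 145246870 and Tnfrsf14 on the same chromosome from 154921933 to 154928563, both on the minus strand (GENCODE M21, GRCm38). Their promoter windows from RefSeq (GRCm38.p6), 250 bases before to 50 after the start, are printed because they belong to the 2 highest members and both hold the interferon-stimulated response element searched here, GAAA, any 2 bases and GAAA, on either strand. Capitals mark the match, which reads as its reverse complement. The Tnfrsf1b window is chr4:145246821-145247120 and the Tnfrsf14 window is chr4:154928028-154928327, both read along the minus strand. The GENCODE model of Tnfrsf14 begins further upstream, at 154928563, where its transcript Tnfrsf14-203 starts. The match lies before the start of transcript Tnfrsf14-205, at 154928077. It lies inside the first exon of transcript Tnfrsf14-201 and downstream of the start of Tnfrsf14-203.
Tnfrsf1b: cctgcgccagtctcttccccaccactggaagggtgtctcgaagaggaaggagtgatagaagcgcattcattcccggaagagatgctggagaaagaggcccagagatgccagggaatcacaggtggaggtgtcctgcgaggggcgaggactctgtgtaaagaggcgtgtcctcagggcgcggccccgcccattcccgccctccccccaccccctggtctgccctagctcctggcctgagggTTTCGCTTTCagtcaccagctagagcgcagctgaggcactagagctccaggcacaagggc
Tnfrsf14: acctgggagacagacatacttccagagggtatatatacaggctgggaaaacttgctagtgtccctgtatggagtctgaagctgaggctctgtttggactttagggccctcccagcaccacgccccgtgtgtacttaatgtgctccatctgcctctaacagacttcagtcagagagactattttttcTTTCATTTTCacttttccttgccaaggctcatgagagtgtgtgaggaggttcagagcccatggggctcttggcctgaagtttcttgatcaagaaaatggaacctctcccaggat

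The element was found in 4 of the 37 windows of the 33 members matched (10.8%), against 3.42% of 20150 windows of protein-coding genes. The other 2 belonged to Tnfsf13b and Tnfrsf17, at a mean of 0.85 and 0.0067 TPM, so windows with the letters spanned the highest and nearly the lowest levels of the family. The κB letters, GGG, any 2 bases and TTTCC, stood in the windows of Ltb, Tnfrsf25 and Tnfrsf9, all under 1 TPM (8.11% of members' windows, against 1.58% of all). The AP-1 letters TGACTCA stood in 7 windows of 6 members, Fas, Tnfrsf8, Tnfrsf9, Tnfsf13, Tnfsf13b and Tnfsf14 (18.9%, against 4.65% of all). The PU.1 core GAGGAA stood in 13 windows, among them those of Tnf, Tnfrsf1b, Ltbr and Tnfrsf21 (35.1%, against 27.2% of all). Both strands were searched in all cases, and a match describes the reference sequence, not binding. Tnfrsf22, Cd40, Tnfrsf11b, Tnfrsf10b, Tnfrsf26, Tnfsf4, Cd70, Tnfsf12, Cd40lg and Tnfsf9 had no window.

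The other 4 receptors of this class above 1 TPM lay close together. Ltbr, the lymphotoxin β receptor, which drives lymphoid organ formation through non-canonical NF-κB, held 20.98, 20.2 and 24.4 TPM. Tnfrsf11a, the osteoclast-forming receptor RANK, held 20.7, 17.6 and 23.9 TPM. Their ranges overlapped, as did those of Tnfrsf11a and Tnfrsf13b, though Ltbr, Tnfrsf11a and Tnfrsf13b kept this order within each library.
Tnfrsf13b, known as TACI, a receptor for Tnfsf13 and Tnfsf13b studied mostly in B cells, held 13.1, 15.8 and 18.5 TPM while the 4 B cell markers summed to at most 0.04 TPM. Cd40, the co-stimulatory receptor that T cells engage through Cd40lg, held 16.8, 14.3 and 13.4 TPM, and it was the only one of these 4 that was highest in replicate 1 by TPM. The remaining 10 receptors of the class stayed under 1 TPM in every library. Tnfrsf8, known as CD30, held 0.53 to 0.81 TPM, Tnfrsf12a, the receptor for Tnfsf12, 0.25 to 0.57, and Tnfrsf9, a co-stimulatory receptor of T cells, 0.05 to 0.52 TPM. Tnfrsf4 held 0.06 to 0.30, Cd27 0.03 to 0.25, Eda2r 0.04 to 0.14 and Tnfrsf18 0.01 to 0.07 TPM.

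Of 6 receptors with a death domain, Tnfrsf1a, Tnfrsf21 and Fas reached 1 TPM in every library. Tnfrsf1a, the receptor through which soluble Tnf triggers NF-κB and, under some conditions, cell death, held 50.4, 46.2 and 53.0 TPM, the tightest of the leading 4 members at 49.8 ± 3.43 TPM. Tnfrsf1b exceeded it 3.82-fold, 3.39-fold and 4.14-fold in replicates 1, 2 and 3. Tnfrsf21, known as DR6, held 8.90, 8.89 and 13.2 TPM, below Cd40 in all 3 libraries and close to it in replicate 3 alone. Fas, the receptor that kills on contact with Fasl, held 5.11, 5.93 and 3.81 TPM. Tnfrsf10b, the mouse death receptor for Tnfsf10, held 0.23 to 0.28 TPM, while Tnfrsf25 had 0 counts and the neurotrophin receptor gene Ngfr 1 count in all.

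Mouse carries decoy receptors for Tnfsf10 in a small cluster on chromosome 7. Tnfrsf23 held 1.64, 1.89 and 1.08 TPM and Tnfrsf22 held 0.78, 0.90 and 0.64 TPM, each above Tnfrsf10b in every library. Their neighbour Tnfrsf26, a mouse receptor of unassigned class, held 1.53, 1.32 and 1.11 TPM. The antisense gene E230032D23Rik, at 1.40 ± 0.306 TPM, overlaps all 3 genes and makes their values uncertain, since use of strand in the counting was not given in the sources used here. Tnfrsf11b, a soluble decoy known as osteoprotegerin, had 0 counts.

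Among the 17 ligands Tnf stood far above the rest, and 6 reached 1 TPM in every library, against 11 of 26 receptors. The median ligand held 0.327 ± 0.0321 TPM and the median receptor 0.575 ± 0.0661 TPM. Tnf, an inflammatory cytokine made as a membrane protein and freed by the protease Adam17, held 64.0, 75.1 and 47.8 TPM, for 62.3 ± 13.7 TPM. It lay above Tnfrsf1a in replicates 1 and 2 and below it in replicate 3, so the order of this ligand and its receptor was not separated.

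Tnf messenger RNA is known to be short-lived because AU-rich elements in its 3' UTR draw decay factors such as Zfp36. Tnf lies on chromosome 17 from 35199381 to 35202007 on the minus strand, and the stretch chr17:35199681-35199707 of its 3' UTR (GENCODE M21, GRCm38) is printed because it holds copies of the nonamer counted below, which other members hold at most once. Capitals mark the ATTTA pentamers, read along the minus strand.
Tnf: ttATTTAttATTTATTTAttATTTAtt
The nonamer TTATTTATT, counted with overlaps on the transcript strand, occurred 5 times in the 764-base 3' UTR of Tnf. Lta, Tnfrsf22 and Tnfrsf10b held 1 copy each, and the other 39 members none. The shorter ATTTA did not set Tnf apart, with 8 copies in Tnf, 10 in Tnfsf8 and 8 in Tnfsf10. At least 1 copy was thus present in 9.30% of members, against 7.03% of 20830 protein-coding genes with a 3' UTR. At least 3 copies were present in Tnf alone among members, and in 0.562% of those genes.

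Tnfsf12, known as TWEAK, a ligand of wound repair and angiogenesis, came next at 20.3, 25.6 and 25.1 TPM. Tnfsf10, the death ligand TRAIL, held 15.4, 6.25 and 8.69 TPM, with replicate 1 well above the others. Tnfsf13, known as APRIL, which sustains plasma cells, held 5.34, 2.23 and 3.16 TPM, and replicate 1 was again highest. Tnfsf15, a T cell co-stimulator, held 3.15, 2.58 and 2.06 TPM, and Tnfsf9, the ligand of Tnfrsf9, held 1.05, 1.92 and 1.91 TPM. At least 1 library of Tnfsf13b and of Tnfsf8 fell short of 1 TPM. Tnfsf13b, the B cell survival factor BAFF, held 0.75, 1.04 and 0.76 TPM, and Tnfsf8, the ligand of Tnfrsf8, held 1.29, 0.69 and 0.34 TPM.

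The other ligands stayed under 1 TPM in every library. The lymphotoxin genes Ltb and Lta held 0.29 to 0.64 and 0.04 to 0.05 TPM, Tnfsf4 0.03 to 0.13, Tnfsf18 0.01 to 0.16 and Tnfsf14, known as LIGHT, 0.03 to 0.05 TPM. Cd40lg, Cd70, Tnfsf11, Tnfrsf11b, Tnfrsf13c, Tnfrsf19 and Tnfrsf25 had 0 counts in every library (16.3% of members, against 32.8% of all protein-coding genes). A count of 0 allows up to 0.104, 0.0565 and 0.0641 CPM (a gene's counts scaled by its library's total) in replicates 1, 2 and 3, from 3 counts per library, which covers counting error only. Fasl and Tnfrsf17 had 1 count each, in replicate 3.

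Few steps in the order of levels were wider than the spread between libraries. Of 42 neighbouring pairs in that order, 36 had overlapping ranges, among them every pair of members that both held 0 TPM. Ranges take no account of the order within each library. Ltbr lay above Tnfrsf11a, and Tnfrsf11a above Tnfrsf13b, in all 3 libraries despite overlapping ranges. So did Tnfrsf8 above Ltb, Tnfrsf4 above Cd27 and Tnfrsf18 above Tnfrsf17, all under 1 TPM. The 6 that did not were Tnfrsf1b above Tnfrsf14, Tnfrsf1a above Tnfsf12, Cd40 above Tnfrsf21, Tnfsf10 above Fas, Tnfsf15 above Tnfsf9 and Tnfrsf26 above Tnfsf13b. With 3 libraries an exact sign-flip test cannot give a p under 0.25, so no order was tested.

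Levels of ligands were set beside those of their receptors. Of 24 listed ligand and receptor pairs known to bind, both genes reached 1 TPM in every library in 3, the receptor alone in 9, the ligand alone in 5 and neither in 7. With 6 of 17 ligands and 11 of 26 receptors at that level, no more is read from these counts. The 3 pairs were Tnf with Tnfrsf1a, Tnf with Tnfrsf1b, and Tnfsf13 with Tnfrsf13b. In the table made from reads Tnfsf13 held 2.25, 0.839 and 0.840 TPM, so its pair was lost there. The list leaves out the decoys Tnfrsf22 and Tnfrsf23, and Tnfsf10 and Tnfrsf23 also both reached 1 TPM in every library. From reads Tnfrsf23 held 0.784, 0.887 and 0.351 TPM, so that pair was lost there too. Its transcripts with a complete coding sequence, a choice made after the values were seen, held 1.03, 0.83 and 0.53 TPM.
Where the receptor alone reached it, the ligands below 1 TPM in at least 1 library were the lymphotoxins, Tnfsf14, Fasl, Cd40lg, Tnfsf11 and Tnfsf13b. Tnfrsf11a stood at 20.7 ± 3.17 TPM while its ligand Tnfsf11, known as RANKL, had 0 counts, and Cd40 at 14.8 ± 1.71 TPM while Cd40lg had 0 counts. Tnfrsf14 stood at 81.2 ± 15.2 TPM, against 0.037 ± 0.012 TPM for Tnfsf14.
The opposite held in 5 pairs. Tnfsf12 held 23.7 ± 2.95 TPM, against 0.38 ± 0.168 TPM for its receptor Tnfrsf12a, and Tnfsf10 held 10.1 ± 4.76 TPM, against 0.263 ± 0.0289 TPM for Tnfrsf10b. Tnfsf15 held 2.60 ± 0.545 TPM while Tnfrsf25 had 0 counts, and Tnfsf9 held 1.63 ± 0.499 TPM, against 0.327 ± 0.246 TPM for Tnfrsf9. Tnfsf13 was the ligand of the remaining pair, with Tnfrsf17.

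**Figure D1:**
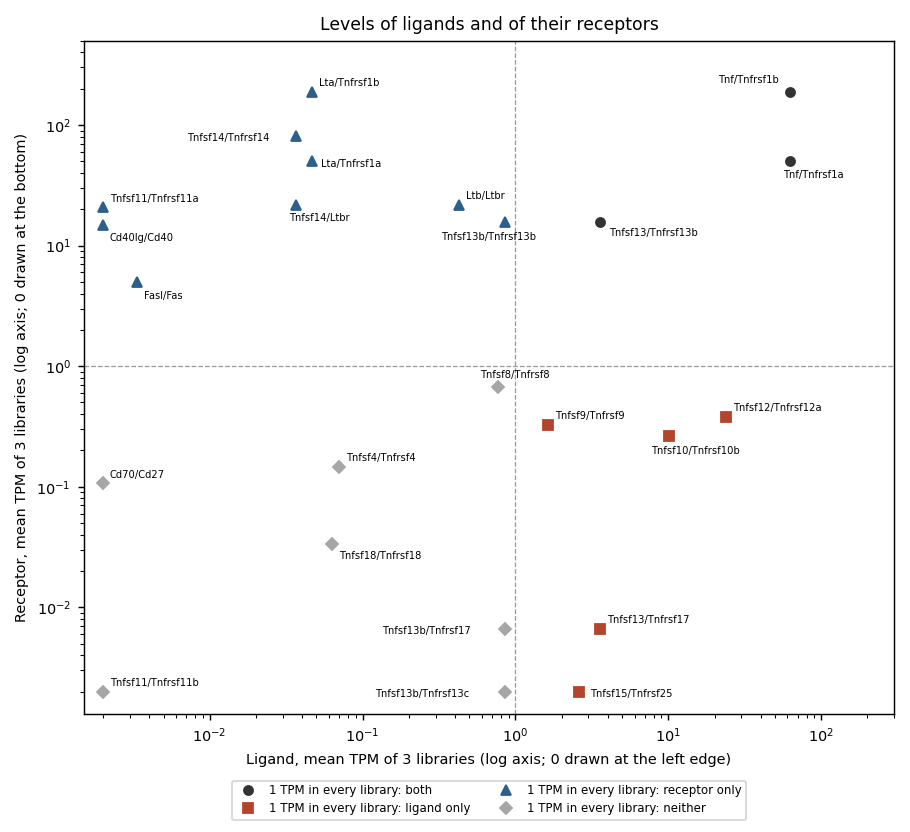
Mean TPM of the ligand (x axis, log) and of its receptor (y axis, log) for 24 pairs, with dashed lines at 1 TPM and values of 0 drawn at the edges. The 3 pairs with both genes at 1 TPM or more in every library stand at the upper right, and 9 pairs with the receptor alone at the upper left.

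Several members lie next to each other in the genome. Within 100 kb of each other lay 13 neighbouring pairs made of 22 members, and both members reached 1 TPM in every library in 2 of them, 1 member in 8 and neither in 3. Tnf lies between Ltb and Lta on chromosome 17, at 3061 and 1158 bases from them, and held 62.3 ± 13.7 TPM, against 0.427 ± 0.187 TPM for Ltb and 0.047 ± 0.0058 TPM for Lta. Tnfrsf1b lies 20267 bases from Tnfrsf8, which held 0.667 ± 0.140 TPM. On chromosome 6, Ltbr at 21.8 ± 2.24 TPM and Tnfrsf1a at 49.8 ± 3.43 TPM are 35477 bases apart, with Cd27 at 0.107 ± 0.124 TPM beyond Ltbr.
Tnfsf13 and Tnfsf12, on chromosome 11 and 466 bases apart, are the other pair with both present. The read-through gene Tnfsfm13 spans both on the same strand and held 5.85 ± 0.879 TPM, and the antisense gene Tnfsf13os overlaps them at 1.32 ± 0.930 TPM. The split of reads among these 4 genes is uncertain.

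For most abundant members 1 transcript carried nearly all of the level. Among the 11 members whose mean was at least 5 TPM, the leading transcript held 90% or more in 7 and under 60% on average in Tnfrsf14 and Cd40. It was annotated as protein-coding in all 11, and the same transcript led in the tables made from alignments and from reads.
Tnfrsf14 was split in 3. Tnfrsf14-205 held 38.6 ± 2.51% of the gene's TPM, Tnfrsf14-201 31.7 ± 2.81% and Tnfrsf14-203 27.9 ± 5.24%, while the table made from reads gave 36.3, 32.3 and 28.0%. Tnfrsf14-205 and Tnfrsf14-201 have coding sequences of 828 and 825 bases, which differ by 3 bases at an exon junction between 154922310 and 154922494 on chromosome 4. The junction is printed because it alone separates the coding sequences of the 2 leading transcripts, and capitals mark the added bases.
Tnfrsf14-205: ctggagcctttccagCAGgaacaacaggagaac
Tnfrsf14-201: ctggagcctttccaggaacaacaggagaac
Tnfrsf14-203 is a model of 394 bases with 275 coding bases and no stop codon. Counting transcripts with a complete coding sequence only, a choice made after the values were seen, left Tnfrsf14 57.7, 45.4 and 68.3 TPM. It then lay below Tnf in replicates 1 and 2 and above it in replicate 3, so their order was not separated.

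Cd40 spread over 4 transcripts. Cd40-202 held 51.3 ± 5.02% of the gene's TPM, Cd40-201 19.0 ± 2.95%, Cd40-203 17.0 ± 3.73% and Cd40-207, annotated for nonsense-mediated decay, 10.7 ± 4.83%. Cd40-201 has an 87-base coding exon, from 165069629 to 165069715 on chromosome 2, that Cd40-202 lacks, which gives coding sequences of 867 and 780 bases. Its last exon is 2227 bases long, against 933 in Cd40-202. Cd40-203 lacks the 62-base exon from 165066503 to 165066564 that both others hold. Reads gave 12.3% to Cd40-201 and 17.9% to Cd40-207, so the smaller shares depended on the table.
Tnfrsf13b and Tnfrsf11a were looked at after their values were seen. Tnfrsf13b-201 led its gene with 70.7, 54.4 and 57.9% in replicates 1, 2 and 3, and with 54.8% in the table made from reads. The non-coding model Tnfrsf13b-205 held 37.1 ± 7.86% of Tnfrsf13b, and the retained-intron model Tnfrsf11a-203 held 13.2 ± 1.19% of Tnfrsf11a. With complete coding transcripts only, Tnfrsf13b fell to 9.53 ± 1.10 TPM.

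**Figure D2:**
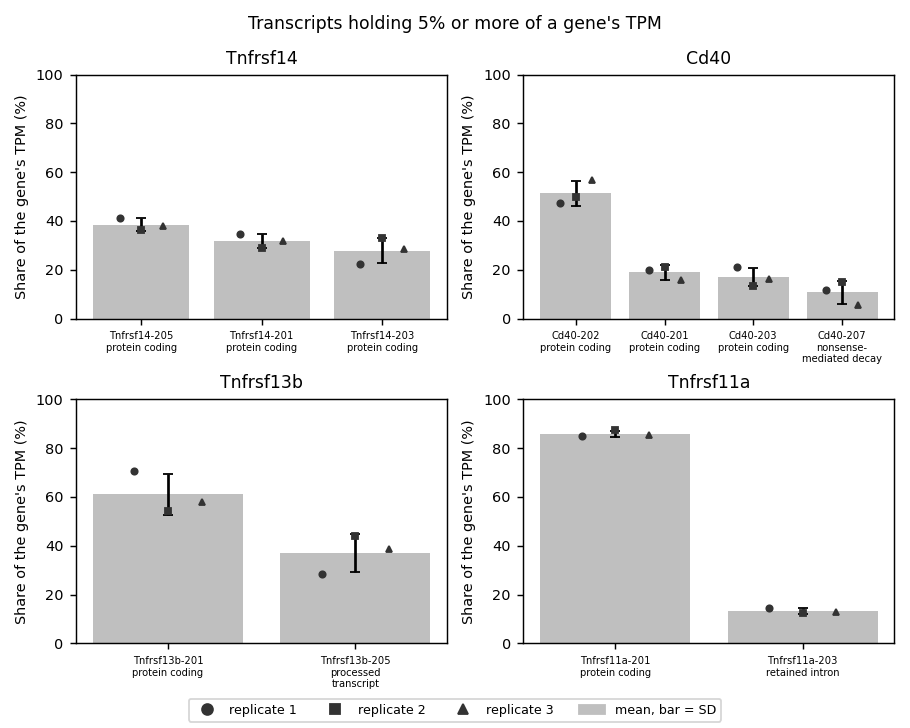
Share of the gene's TPM (%) held by each transcript with a mean of 5% or more, for Tnfrsf14, Cd40, Tnfrsf13b and Tnfrsf11a, with bars for the mean, whiskers for the SD and a symbol for each replicate. Tnfrsf14 and Cd40 have no transcript above 60%, and Tnfrsf11a-201 holds 85.8% of its gene.

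Differences between the 3 libraries were largest, by ratio, in Tnfsf18, Tnfrsf9 and Tnfsf8, and smallest in Tnfrsf11a, Tnfrsf13b and Ltbr. A chi-square test of homogeneity on counts, scaled between libraries by TMM and adjusted over all genes tested, was read as a difference only at a ratio of the highest to the lowest library of at least 2. Of 27 members with a mean of 10 or more counts, 8 met this (29.6%), against 8.12% of protein-coding genes. This test compares the libraries and no conditions, and covers counting error only, so 22 of the 27 (81.5%) passed it at any ratio, against 75.9% of protein-coding genes. The 8 were 4 ligands and 4 receptors, and the highest library was the same by TPM for each. Without replicate 2 they were 2 of 26, Tnfsf10 and Tnfsf8 (7.69%, against 5.25% of protein-coding genes). The gap to all genes was smaller there, and the reason was not tested. Without replicate 3 they were 5 of 28 (17.9%, against 3.77%), and without replicate 1 they were 7 of 28 (25%, against 5.32%).
After TMM scaling Tnfsf10 stood at 127, 54.3 and 59.98 CPM in replicates 1, 2 and 3, a ratio of 2.33 (adjusted p = 1e-300, the smallest value written). Tnfsf13 held 10.7, 4.83 and 5.47, a ratio of 2.22 (adjusted p = 1.2e-23). Both ligands were high in replicate 1.
Tnfsf8 held 7.91, 4.53 and 1.76, with a ratio of 4.48 and replicate 3 lowest. Tnfrsf23 held 5.44, 7.99 and 3.46, a ratio of 2.31, and Tnfrsf12a 0.322, 0.777 and 0.328, a ratio of 2.33. In both receptors replicate 2 was highest, and Tnfrsf12a rested on 9, 41 and 16 counts.
Tnfrsf9 rested on 36, 9 and 39 counts, and replicate 1 exceeded replicate 2 by 7.56-fold (95% exact interval 3.57 to 17.8). Tnfsf18 rested on 1, 28 and 3 counts, and replicate 2 exceeded replicate 1 by 14.8-fold (95% exact interval 2.45 to 606). Tnfsf18 passed the filter of a mean of 10 counts through replicate 2 alone, so its place among the 8 rests on that library. Fas and Tnf stood on either side of the threshold. Fas held 9.85, 13.0 and 6.43, a ratio of 2.02, and Tnf 154, 195 and 98.2, a ratio of 1.98. With DESeq2 size factors Fas was not called.

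Tnfrsf11a, Tnfrsf13b, Ltbr, Tnfrsf1a, Tnfrsf1b and Tnfrsf14 had ratios of 1.08 to 1.17. The other receptors at a mean of at least 10 TPM, Tnfrsf21 and Cd40, had ratios of 1.25 and 1.51. The median ratio was 1.63 over the 27 members and 1.27 over protein-coding genes tested. The coefficient of variation that edgeR gave each gene had a median of 0.246 over 24 members and 0.156 over 11060 protein-coding genes. Scaling set which library was highest in a steady gene. Tnfrsf1b was highest in replicate 3 by TPM and in replicate 1, at 1180 CPM, after TMM scaling. Of the 27 members, 12 were highest in replicate 1, 12 in replicate 2 and 3 in replicate 3 by TMM-scaled counts. The same split over all genes was not counted. Replicate 3 stood apart in nuclear RNA, with Malat1 at 1343 TPM and Neat1 at 91.4 TPM, against 158 and 91.0 TPM for Malat1 and 16.8 and 10.4 TPM for Neat1 in replicates 1 and 2. The part of nuclear RNA in the members' differences was not tested.

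**Figure D3:**
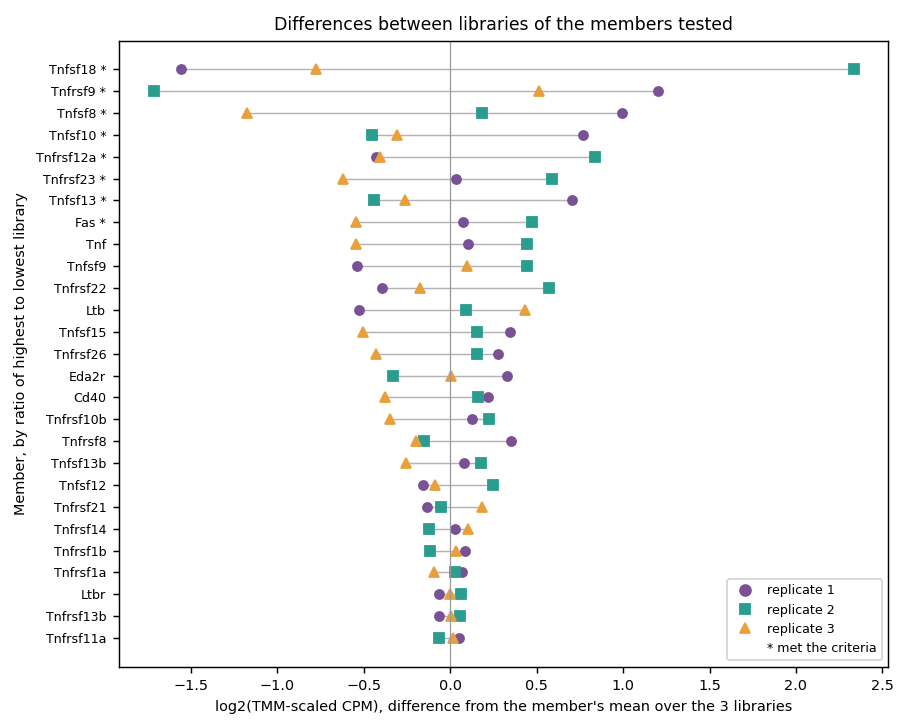
Difference of each library from the member's mean of log2 TMM-scaled CPM, for the 27 members tested, ordered by the ratio of highest to lowest library, with asterisks on the 8 that met the criteria. The spread narrows from Tnfsf18 and Tnfrsf9 at the top to Tnfrsf13b and Tnfrsf11a at the bottom, whose libraries lie nearly together.

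Most of the listed genes of TNF signalling, ligand processing and Tnf messenger RNA control were present. Of 64 listed pathway genes outside the family rule, 59 reached 1 TPM in every library (92.2%), against 41.2% of all protein-coding genes, and the median of the list was 13.0 ± 0.539 TPM. The list holds genes known for TNF signalling in many cell types and was chosen with earlier results of these data known. Its share is a description with no test. All 9 brakes, all 6 death effectors, all 5 NF-κB subunits and all 10 regulators of Tnf messenger RNA were among them. So were 21 of 23 adaptors and kinases and 7 of 8 genes listed for processing. That last list includes Ern1, at 10.3 ± 0.287 TPM, whose part in processing is not established here.
Cflar, which blocks caspase activation at death receptors, was highest at 88.3 ± 15.2 TPM, above Fas at 4.95 ± 1.07. Sppl2a, a protease that cuts the Tnf stub left in the membrane, held 71.3 ± 13.4 TPM, and the NF-κB inhibitor gene Nfkbia 67.8 ± 8.97 TPM. Mapkapk2, a kinase that acts on Tnf messenger RNA through Zfp36, held 68.5 ± 2.16 TPM.
Among the factors that bind AU-rich elements, Hnrnpd held 41.0 ± 4.61 TPM, Zfp36 39.0 ± 5.92 and Zfp36l1 36.9 ± 8.06 TPM, all below Tnf at 62.3 ± 13.7. Mlkl, the pore-forming effector of necroptosis, held 39.7 ± 5.27 TPM. The exceptions under 1 TPM in a library were Map3k5, at 0.99, 1.07 and 1.32 TPM, Edaradd at 0.163 ± 0.223 and Rhbdf1, a partner of Adam17, at 0.117 ± 0.047 TPM, with Eda and Edar at 0. Rhbdf2, listed for processing beside Rhbdf1, held 14.9 ± 2.17 TPM, and Adam17 itself 32.5 ± 3.47 TPM. Relt, a family receptor that the symbol rule does not take in, held 2.80 ± 1.08 TPM. Of 62 pathway genes tested between libraries, 2 differed, against 8.12% of protein-coding genes tested. They were the NF-κB inhibitor gene Nfkbie, with replicate 3 lowest and a ratio of 2.30, and Edaradd, with replicate 3 highest.

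**Figure D4:**
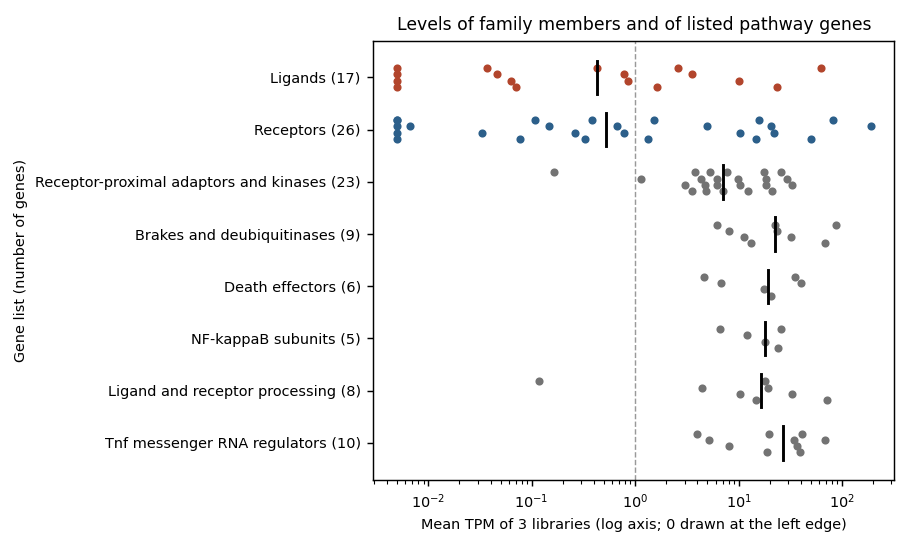
Mean TPM of 3 libraries (log axis, 0 drawn at the left edge) of each ligand and receptor and of the genes of 6 pathway lists, with a black bar at the median of each list and a dashed line at 1 TPM. Family members spread from 0 to 189 TPM, while Edaradd and Rhbdf1 are the pathway genes drawn below 1 TPM, Relt, Eda and Edar not being drawn.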

How the data were processed

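Ribosomal RNA-depleted cytosolic RNA of 3 libraries in 1 group was analysed. Per the deposited README, tables derive from alignments to mm10 with annotation M21, and 1 transcript table was made straight from reads. The aligner and the quantifier were not given in the sources used here. Expected counts were deposited as estimates per gene. Deposited TPM values, posterior mean TPM included, were made relative to length and library total by the authors. Their interval bounds, a signal deposited beside them, were not used. FPKM values deposited beside them served as an alternative level. Of 81881 rows, those that name no gene took 0.418, 0.248 and 0.165% of counts in replicates 1, 2 and 3 and entered neither library sizes nor tests.

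Members, lists and tests were chosen with earlier results of these data known. All 105 listed symbols matched. Since 1 group leaves no contrast for edgeR's quasi-likelihood test, levels carry no test. Expected counts were rounded and scaled by TMM (edgeR 4.0.16 in R 4.3.3), and genes with a mean of 10 or more counts entered a chi-square test of homogeneity between libraries, with Benjamini-Hochberg adjustment at 0.05 over 13636 genes and 0.5 counts added for ratios. The script was tested on simulated counts that held counting error only. That check does not cover the wider spread between these libraries. Exact intervals for ratios of counts are at 95%, cover counting error only and treat reads as independent molecules. They compare libraries picked as highest and lowest after the values were seen, and do not allow for that choice. Named were all members, with values per library where 1 TPM was reached in at least 1. Of pathway genes, the 8 highest, the 3 lowest, those under 1 TPM in a library, Ern1, Rhbdf2 and Adam17 were named. Also named were the highest marker of each list, all neutrophil markers, Malat1 and Neat1. Transcripts were named for members at a mean of 5 TPM whose leading transcript held under 60%. Motif searches used pandas 2.3.3, scipy 1.17.1 and numpy 2.4.6 under Python 3.11.15, with figures by matplotlib 3.10.9. Alternatives were other thresholds and levels, size factors from DESeq2 1.42.0, count filters, ratios, and leaving out each replicate. Transcripts with a complete coding sequence were added after seeing the data.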

Additional observations from a re-analysis of the deposited data

How the results depend on the processing

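No paired analysis was possible because the series holds 1 group. At 5 TPM, 11 members and 3 ligands passed in every library, and 3 ligands did so at 1 TPM in the table made from reads. The median ligand was 0.143 TPM in that table, 1.10 TPM rescaled to protein-coding genes, 0.253 TPM with complete coding transcripts only (added after seeing the data) and 2.48 TPM over ligands averaging 0.1 TPM or more. The median receptor was 0.723 by posterior mean TPM, 0.262 from reads, 1.93 rescaled and 3.25 over receptors passing that level. Levels of single members moved with the table and scale: Tnfrsf1b was 69.2 TPM from reads and 630.1 TPM rescaled, and Tnf 24.4 and 211 TPM. Members differing between libraries were 5 of 22 at a mean of 50 counts (22.7%, against 4.64% of protein-coding genes). They were 14 of 27 at a ratio of 1.5 (51.9%, against 19.7%) and 3 of 27 at a ratio of 3 (11.1%, against 3.53%). Without a count filter they were 10 of 36 (27.8%, against 9.40%). Leaving out replicates 1, 2 and 3 in turn gave 7 (25%, against 5.32%), 2 (7.69%, against 5.25%) and 5 (17.9%, against 3.77%). Leaving out a replicate left 17 members, 6 ligands and 11 receptors at 1 TPM. The causes of these shifts were not tested, except that a filter changes which genes enter. The depth of replicate 1 limits members near 0 most.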
